A study of Homo sapiens with 6 samples.

Results

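RNA polymerase I is the enzyme that transcribes the ribosomal RNA genes, and 10 genes of its machinery were followed here by their symbols in a table of 23368 genes. They were the subunit genes POLR1A, POLR1B, POLR1C, POLR1D, POLR1E, CD3EAP and ZNRD1, and the initiation factor genes UBTF, RRN3 and TAF1C. CD3EAP and ZNRD1 are older symbols of POLR1G and POLR1H. The set was put together with results of these data known, and its rule names CD3EAP for its low level with the siRNA siL2. Values of siL2 against the control are therefore given as a description, without a test, for every member. All 10 were in the table, and all 10 passed the filter on low counts.

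The cells were MDA-MB231, an established human breast cancer cell line, grown in medium with 10% fetal calf serum and transfected with a lipid reagent. The 3 groups received siControl, a control siRNA, or 1 of 2 siRNAs targeting KDM1A, the gene of the histone demethylase LSD1, called siL1 and siL2. Each group had 2 libraries of total RNA, a single cell line stands behind all of them, and neither the time after transfection nor the siRNA sequences are given in the sources used here. The labels do not say that replicates were separate cultures, so the p-values cover the spread between these libraries alone, which may be technical.

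The libraries held 22047738 to 26765079 counts. KDM1A stood at 158 and 165 CPM (a gene's counts scaled to a library total of 1000000) in the control libraries, 27.7 and 28.1 with siL1, and 17.4 and 18.1 with siL2, in the direction of the labels in every library. The line's markers VIM and CD44 were at 3291 to 3707 and 541 to 723 CPM. CDH1, ESR1 and PGR were at or below 0.112 CPM in every library, and EPCAM was at 9.34 to 12.6 CPM. Of 15 markers of blood, endothelial and stromal cells, DCN, HBB, LUM and MS4A1 were among those with 0 counts in all libraries. The summed level of the 15 was 8.47 to 8.57 CPM in the control, 21.9 to 22.8 with siL1 and 13.6 to 15.2 with siL2, mostly COL1A1 and PDGFRB. PTPRC was at or below 0.0406 CPM throughout. The part of these markers in the results below was not tested.

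As background, the polymerase is built around a catalytic core of the largest subunits, encoded by POLR1A and POLR1B. POLR1C and POLR1D encode an assembly dimer that RNA polymerase III shares. POLR1E and CD3EAP encode the partners of a subcomplex (PAF53 and PAF49) that works in initiation and elongation, and ZNRD1 encodes a small subunit that takes part in RNA cleavage. TWISTNB, which is not among the 10, encodes the stalk subunit through which the polymerase meets RRN3. RRN3 (TIF-IA) makes the enzyme competent to initiate, UBTF (UBF) binds and bends ribosomal DNA, and TAF1C is part of the promoter selectivity factor SL1. Output of this enzyme is coupled to cell growth, and the transcription factor MYC is known to raise it. CD3EAP owes its name to a reported association with the CD3 epsilon chain of T cells and is distinct from CD3E, which was at or below 0.0406 CPM in all libraries.

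CD3EAP was the member with the largest difference between the siRNAs, and its 3' UTR is shown first because it held a heptamer that an earlier look at these data had tied to genes lower with siL2. GTTACAA occurred 2 times in the 3' UTR of the longest coding CD3EAP transcript of GENCODE v29, with starts 15 bases apart. The stretch lies at chr19:45409842-45409871 on the plus strand of GRCh38, in the 3' UTR of CD3EAP, and no exon of another gene covers it; capitals mark the heptamers.
CD3EAP: ttgaGTTACAAacaatccaGTTACAAtctt
The shorter coding transcript of CD3EAP, with a 3' UTR of 285 bases, ends before it. None of the other 9 members held GTTACAA in its longest 3' UTR, and neither did TWISTNB.

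RRN3, the member that rose with siL1, held 3 copies of either TACATTT or ACATTTA, heptamers that the earlier look had tied to genes higher with both siRNAs. They lie on the minus strand of chromosome 16, in the 3' UTR of RRN3, at chr16:15061482-15061511, chr16:15061451-15061480 and chr16:15060140-15060169 of GRCh38, in this order below.
RRN3 first: ggggttgatgaTACATTTggaaggatttgc
RRN3 second: tgtttaatatgTACATTTtttgtgttaaca
RRN3 last: aatgtagaaagACATTTAcatataagtctg
POLR1A held 2 copies of these heptamers and TAF1C held 1, and the other 7 members held 0. These counts are for the longest 3' UTR of each gene, 1722 bases in RRN3. The other coding transcripts of RRN3, with 3' UTRs of 63 to 316 bases, held 0 to 2 copies. Searches covered the transcript strand only, and whether these letters bear on any change was not tested.

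CD3EAP had 17.8 and 16.4 CPM in the control libraries, 15.2 and 15.3 with siL1, and 4.60 and 4.95 with siL2. Both siL2 libraries lay far below the other 4, which spanned 15.2 to 17.8 CPM. These levels rest on 392 and 388 counts in the control, 357 and 377 with siL1, and 123 and 122 with siL2, where exact 95% Poisson intervals of 102 to 147 and 101 to 146 counts cover counting error only. With siL2 the log2 fold change was -1.84 (SE 0.108), 0.278 of the control level, and the 18th lowest of 13322 genes tested. Against siL1 the log2 difference was -1.68 (SE 0.109). With siL1 itself the log2 fold change against the control was -0.16 (SE 0.0918, adjusted p = 0.166), and although both siL1 libraries lay below both controls, this did not pass the test. The authors' deposited table gives fold changes of 0.897 with siL1 and 0.278 with siL2.

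ERCC1, a DNA repair nuclease gene, lies on the opposite strand, and its exons cover 48.4% of the merged exon bases of CD3EAP in GENCODE v29. Whether the counting used strand is not given in the sources used here, so reads of the overlap cannot be told apart. ERCC1 stood at 105 and 100 CPM in the control, 124 and 119 with siL1, and 124 and 125 with siL2. It rose with siL1 (log2 fold change 0.25, adjusted p = 0.000441) and with siL2 (0.28, adjusted p = 0.000214), in the direction away from CD3EAP. PPP1R13L, whose exons cover 1.76% of those of CD3EAP, had 50.6 ± 4.08 CPM in the control, 63.5 ± 1.63 with siL1 and 52.9 ± 4.25 with siL2 (SD, n = 2 each). It rose with siL1 (log2 fold change 0.33, adjusted p = 0.00143), and with siL2 the log2 fold change was 0.06 (adjusted p = 0.498).

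CD3EAP works as a dimer with the product of POLR1E, and the ratio of their counts was followed within each library. POLR1E had 7.51 and 8.37 counts per CD3EAP count in the control, 7.36 and 7.37 with siL1, and 24.1 and 21.4 with siL2. Both siL2 libraries lay far above the other 4, whose ratios ran from 7.36 to 8.37. The corresponding ratio of POLR1A to CD3EAP was 3.74 to 4.07 in the control and siL1 libraries and 13.4 to 14.8 with siL2. Because CD3EAP was chosen for its low level with siL2, the siL2 ratios restate that level and are a description only.

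**Figure D1:**
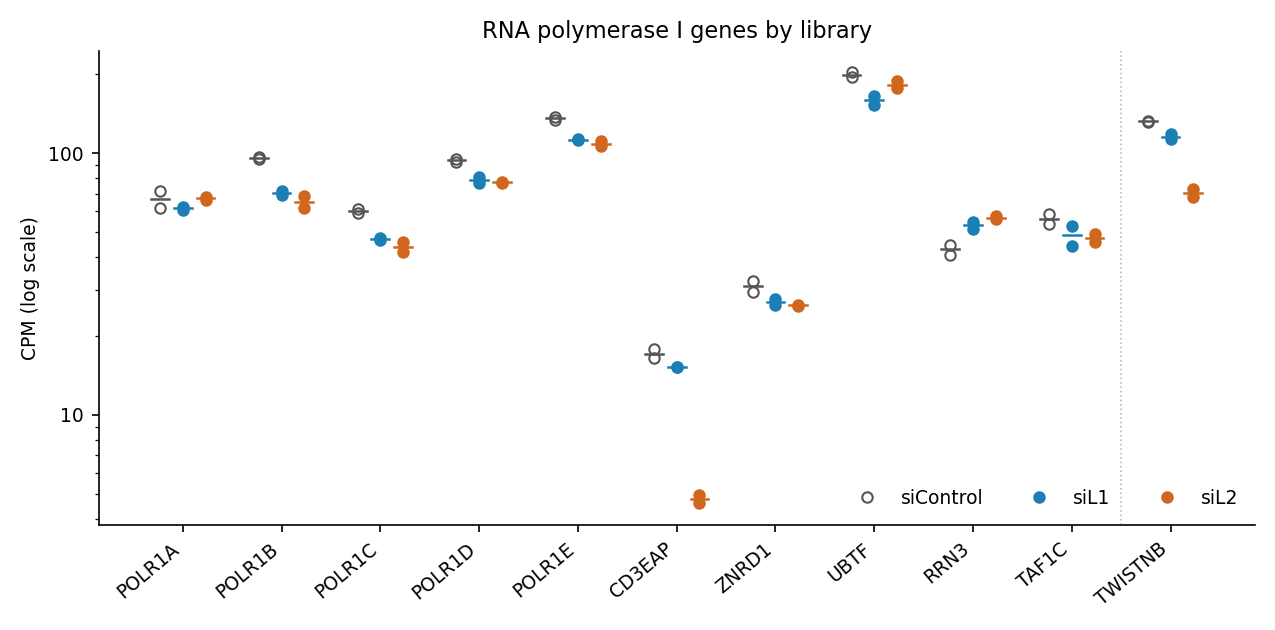
CPM (log scale) of the 10 RNA polymerase I genes and TWISTNB in each of the 6 libraries; points are libraries and short lines group means. The siL2 points of CD3EAP, at 4.60 and 4.95 CPM, lie far below its other 4 points, whereas the siL1 and siL2 points of most members lie close together below the control.

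With siL1, 6 of the 10 members fell and 1 rose, where 25.7% of all genes tested were called lower and 24.7% higher. The median log2 fold change of the 10 was -0.22, beside -0.01 over all genes tested. The summed level of the 10 was 802 and 794 CPM in the control, 676 and 670 with siL1, and 687 and 672 with siL2, so the siRNA libraries lay below the controls as a set. A gene was called where the adjusted p of edgeR's quasi-likelihood test was below 0.05.

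POLR1B, the second largest core subunit gene, had 96.9 and 95.03 CPM in the control, 71.3 and 69.0 with siL1, and 68.3 and 61.4 with siL2. All siRNA libraries lay below both controls. The log2 fold change was -0.45 for siL1 (SE 0.0549, adjusted p = 2.34e-05) and -0.57 for siL2. Between the siRNAs it differed by -0.12 (adjusted p = 0.0953), a value that passed at -0.19 (adjusted p = 0.0301) without siL2 replicate 1. POLR1A, the gene of the largest subunit, was not called: it had 71.6 and 61.5 CPM in the control, 60.8 and 62.3 with siL1, and 68.0 and 66.4 with siL2. The control libraries of POLR1A spanned all siRNA values except 60.8. Its log2 fold change with siL1 was -0.11 (SE 0.0669, adjusted p = 0.208), which became 0.0046 without siControl replicate 1 and -0.22 (adjusted p = 0.0171) without siControl replicate 2.

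Both subunit genes shared with RNA polymerase III fell with siL1. POLR1C had 59.2 and 61.3 CPM in the control, 46.7 and 47.3 with siL1, and 42.0 and 45.5 with siL2. The controls lay above all 4 siRNA libraries, and the log2 fold change of siL1 was -0.36 (SE 0.0596, adjusted p = 0.000291). POLR1D had 92.5 and 94.99 CPM in the control, 80.9 and 76.7 with siL1, and 77.1 and 77.8 with siL2. Here siL1 and siL2 overlapped, both below the control (siL1 log2 fold change -0.25, SE 0.0475, adjusted p = 0.000827).

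POLR1E, the partner of CD3EAP, had 134 and 138 CPM in the control, 112 and 113 with siL1, and 111 and 106 with siL2. It fell with siL1 (log2 fold change -0.27, SE 0.0434, adjusted p = 0.000222) and had a log2 fold change of -0.33 with siL2. Between the siRNAs it differed by -0.06 (adjusted p = 0.298), where CD3EAP differed by -1.68. ZNRD1 had 32.4 and 29.5 CPM in the control, 27.7 and 26.2 with siL1, and 26.3 and 26.1 with siL2. Its fall with siL1 (log2 fold change -0.19, adjusted p = 0.0418) was the weakest call among the members. That call ended without siControl replicate 1 (adjusted p = 0.278), siL1 replicate 1 (0.0629) or siL1 replicate 2 (0.19). Exons on the opposite strand cover 44.8% of the merged exon bases of ZNRD1, and its antisense gene ZNRD1-AS1 stood at 0.811 to 1.63 CPM over all libraries.

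Initiation factor genes went in different directions. UBTF, the most counted member, had 203 and 195 CPM in the control, 166 and 153 with siL1, and 188 and 177 with siL2. The groups were in the order control, siL2, siL1 with no overlap. UBTF fell with siL1 (log2 fold change -0.32, SE 0.0472, adjusted p = 0.000114), and siL2 was at -0.13 against the control. Of the 9 members tested between the siRNAs, which leaves out CD3EAP, it was the only one called: it was higher with siL2 than with siL1 by 0.19 (adjusted p = 0.0054), a call that ended without siL1 replicate 2 (adjusted p = 0.067) or siL2 replicate 1 (0.0501).

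RRN3 was the member that rose with siL1. It had 41.0 and 44.7 CPM in the control, 51.2 and 54.7 with siL1, and 56.0 and 57.4 with siL2, and the 3 groups did not overlap. The log2 fold change was 0.31 for siL1 (SE 0.0639, adjusted p = 0.00131) and 0.40 for siL2. RRN3 has near-identical pseudogene copies, so its reads may be split between them. RRN3P1, RRN3P2 and RRN3P3 together held 36 to 61 counts per library, or 2.67% to 4.64% of the RRN3 count, and with their counts added to RRN3 the rise with siL1 was 0.29 (adjusted p = 0.00201).

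TAF1C had 53.5 and 58.3 CPM in the control, 44.3 and 52.7 with siL1, and 45.7 and 49.0 with siL2. Its siL1 libraries differed most from each other, and both were below the controls. The log2 fold change with siL1 was -0.20 (SE 0.0807, adjusted p = 0.0551), which did not pass. By the same edgeR test it passed at -0.21 (adjusted p = 0.0113) with no filter and at -0.19 (adjusted p = 0.0454) with only the groups compared. The value rested on single libraries: it was -0.34 (adjusted p = 0.00563) without siL1 replicate 2 and -0.08 (adjusted p = 0.458) without siL1 replicate 1. Likewise it was -0.26 (adjusted p = 0.0404) without siControl replicate 1 and -0.14 (adjusted p = 0.275) without siControl replicate 2, and adjusted p was 0.0378 and 0.0384 without siL2 replicate 1 or 2.

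With siL2, which the rule used, the members were not tested, and their values are given as a description only. Of all genes tested, 23.3% were called lower and 22.6% higher with siL2. Leaving out CD3EAP, the log2 fold changes of the members with siL2 ran from -0.57 (POLR1B) to 0.40 (RRN3), with a median of -0.24. The comparison of siL2 with siL1, which shares the siL2 libraries, called 1 of the 9 members other than CD3EAP higher and 0 lower, where 23.2% of all genes were called higher and 23.7% lower. Across those 9 members the log2 difference of siL2 from siL1 ran from -0.12 to 0.19.

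**Figure D2:**
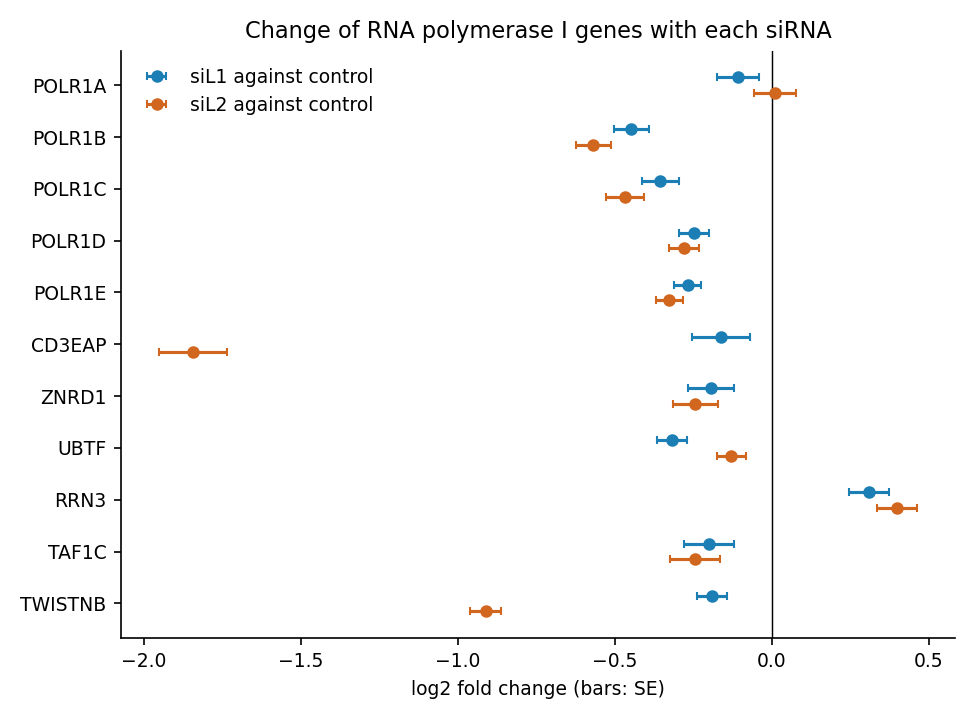
Log2 fold change against the control for the 10 members and TWISTNB, with siL1 and siL2; bars are standard errors. Most members lie between -0.57 and 0 with both siRNAs, RRN3 lies above 0 with both, and CD3EAP at -1.84 and TWISTNB at -0.91 stand apart with siL2.

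Levels were set side by side per kilobase of the principal transcript in GENCODE v29, since counts grow with length. In the control, POLR1D (80.4 ± 1.49 CPM per kb) and POLR1E (72.6 ± 1.51) were highest, followed by POLR1C (44.5 ± 1.10), UBTF (39.9 ± 1.23), ZNRD1 (35.8 ± 2.43), POLR1B (21.1 ± 0.294), TAF1C (14.4 ± 0.869) and RRN3 (11.4 ± 0.704) (SD, n = 2 each). POLR1A (5.22 ± 0.558 CPM per kb) and CD3EAP (5.20 ± 0.292) were lowest and did not differ beyond their spread. The libraries of the other neighbours in this order did not overlap. With siL2, CD3EAP stood alone at 1.45 ± 0.0766 CPM per kb (SD, n = 2), while POLR1A stayed at 5.27 ± 0.0909. The order depends on the transcript assumed: over all merged exons of the gene POLR1D came to 9.95 CPM per kb, in place 8 instead of place 1. Exons of other genes overlap 50.2% of the merged exon bases of CD3EAP and 44.8% of those of ZNRD1. Whether reads there were counted is not given, so the places of CD3EAP and ZNRD1 may depend on it.

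The genes of the complex outside the 10 were followed from a list of 7 other RNA polymerase I and SL1 genes. With siL1, 4 of the 7 fell and 0 rose, with a median log2 fold change of -0.19. Of all genes tested, 25.7% fell and 24.7% rose with siL1. TWISTNB had 133 and 131 CPM in the control, 113 and 118 with siL1, and 72.9 and 67.9 with siL2. The 3 groups were well separated, with siL2 lowest. Its log2 fold change was -0.19 for siL1 (adjusted p = 0.00486) and -0.91 for siL2 (adjusted p = 1.84e-08), and the siRNAs differed by -0.72 (adjusted p = 1.84e-07). Like CD3EAP it was lowest with siL2, and its 3' UTR of 2854 bases held 0 copies of GTTACAA.

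Among the SL1 genes, TAF1A had 34.3 CPM in both controls, 28.4 and 29.98 with siL1, and 27.7 and 28.9 with siL2. It fell with siL1 (log2 fold change -0.23, adjusted p = 0.0123; 0.0894 without siL1 replicate 1 and 0.0654 by the DESeq2 Wald test) and with siL2 (-0.28, adjusted p = 0.0037). TAF1D had 58.3 and 65.7 CPM in the control, 43.2 and 46.4 with siL1, and 51.9 and 63.0 with siL2, and fell with siL1 (-0.47, adjusted p = 0.000795). With siL2 the TAF1D libraries overlapped the controls (-0.12, adjusted p = 0.294; 0.0269 with the replicate number as a block), but that value turned to 0.02 without siL2 replicate 1 and passed at -0.27 (adjusted p = 0.0179) without siL2 replicate 2. TAF1B was called with siL2 (-0.19, adjusted p = 0.00858), a call that ended without siControl replicate 2 (adjusted p = 0.104), and with siL1 it was at 0.11 (adjusted p = 0.0916; 0.0414 without siControl replicate 2). TBP, the TATA-binding protein of SL1, was at 45.7 to 49.1 CPM and TTF1, the termination factor, at 32.7 to 35.6 CPM over all libraries, and neither passed in any comparison. PTRF, also known for caveolae, fell with siL1 (-0.28, adjusted p = 2.94e-05) and was at 0.03 with siL2 (adjusted p = 0.56).

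Of the 5 subunit genes that RNA polymerases I, II and III share, 2 fell and 1 rose with siL1, and 2 fell and 0 rose with siL2. Over all genes tested, 25.7% fell and 24.7% rose with siL1, and 23.3% fell and 22.6% rose with siL2, so counts this small do not set the 5 genes apart. POLR2E fell with siL1 from 217 and 217 to 158 and 156 CPM (log2 fold change -0.46, adjusted p = 1.44e-06), with 202 and 213 CPM with siL2 (-0.07, adjusted p = 0.173; 0.0489 with the replicate number as a block). POLR2L rose with siL1 from 157 and 162 to 187 and 192 CPM (0.26, adjusted p = 0.000346) and stood at 155 and 163 CPM with siL2. POLR2F fell with siL2 (-0.38, adjusted p = 0.000211) and with siL1 (-0.17, adjusted p = 0.0288), the latter call ending without siControl replicate 1 (0.174) or siL1 replicate 2 (0.186) and by the DESeq2 Wald test (0.108). POLR2H fell with siL2 (-0.21, adjusted p = 0.013), which ended without siControl replicate 2 (0.192) or siL2 replicate 2 (0.0518). POLR2K stayed at 104 to 109 CPM and passed in no comparison.

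The other polymerases were measured for comparison. Of 21 RNA polymerase III genes, 11 fell and 2 rose with siL1 (median log2 fold change -0.15), and 9 fell and 2 rose with siL2 (median -0.13). Of all genes tested, 25.7% fell and 24.7% rose with siL1, and 23.3% fell and 22.6% rose with siL2. The number that fell with siL1 was 6 when siL1 replicate 2 was left out and 7 when siL1 replicate 1 or siControl replicate 1 was, and with siL2 it was 3 of 21 without siL2 replicate 1. The number that rose with siL2 was 1 without any of the 4 libraries compared. POLR3G, a polymerase III subunit gene known from undifferentiated and tumour cells, fell by log2 -0.34 with siL1 (adjusted p = 7.46e-05) and by log2 -0.86 with siL2 (adjusted p = 3.2e-08), whereas GTF3A, which encodes the 5S RNA gene factor TFIIIA, rose by 0.24 and 0.25. Of 7 unshared RNA polymerase II subunit genes, 4 fell with siL1 and 3 with siL2, and 0 rose; POLR2A, the largest subunit gene, was at -0.30 (adjusted p = 0.000126) and -0.40 (adjusted p = 1.44e-05).

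Genes acting on ribosomal DNA transcription, activators and repressors together, were lower more often than higher. Such counts give no direction of that transcription, which was not tested. Of 19 such regulators, 13 fell and 2 rose with siL1 (median log2 fold change -0.29), and 10 fell and 4 rose with siL2 (median -0.17). The shares of all genes tested were 25.7% lower and 24.7% higher with siL1, and 23.3% and 22.6% with siL2. MYC had 332 CPM in the control, 245 with siL1 and 205 with siL2 as group means, and fell with siL1 (-0.44, adjusted p = 6.1e-05) and siL2 (-0.70, adjusted p = 1.32e-06). NCL, which encodes the nucleolar protein nucleolin, fell by log2 -0.82 with siL1 (adjusted p = 2.89e-09) and -0.35 with siL2 (adjusted p = 5.19e-06), and the topoisomerase TOP1 fell by -0.53 (adjusted p = 1.44e-07) and -0.54 (adjusted p = 1.24e-07). The nucleolar helicase DDX21 rose by 0.20 (adjusted p = 0.0068) and 0.38 (adjusted p = 7.45e-05). RB1 rose with siL1 (0.12, adjusted p = 0.0362) and fell with siL2 (-0.15, adjusted p = 0.0121). BAZ2A fell with siL1 (-0.43, adjusted p = 3.84e-06) and rose with siL2 (0.14, adjusted p = 0.0166). Without siL1 replicate 2 the number that rose with siL1 was 0, and it was 1 without siControl replicate 1, siControl replicate 2 or siL1 replicate 1. For siL2 it was 2 without siControl replicate 2 or siL2 replicate 1.

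Most ribosome assembly genes fell with both siRNAs. Over all genes tested, 25.7% fell and 24.7% rose with siL1, and 23.3% fell and 22.6% rose with siL2. Of 39 genes of the small subunit processome and the snoRNA-guided modification complexes, 31 fell and 0 rose with siL1 (median log2 fold change -0.26), and 37 fell and 0 rose with siL2 (median -0.32). WDR3 (-0.65) and RIOK1 (-0.58) were among the falls with siL1, and HEATR1 (-0.88) and UTP20 (-0.77) among those with siL2. FBL, the rRNA methyltransferase fibrillarin, fell by -0.27 with siL1 and by -0.39 with siL2. Of 33 large subunit assembly factors, 22 fell and 1 rose with siL1 (median -0.24), and 30 fell and 1 rose with siL2 (median -0.33). RRS1 fell by log2 -1.23 with siL1 (adjusted p = 2.33e-09) and -0.64 with siL2 (adjusted p = 3.42e-07), and SDAD1 by -0.93 with siL2. The gene that rose in each was NMD3, the 60S export adaptor (0.13, adjusted p = 0.0257, and 0.14, adjusted p = 0.0172). The rise with siL1 ended without any of the 4 libraries compared, and that with siL2 without siControl replicate 1 or siL2 replicate 2. The median log2 fold change of all genes tested was -0.01 with siL1 and -0.0036 with siL2. The comparisons of siL1 and siL2 share the control libraries, so their counts are not independent.

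**Figure D3:**
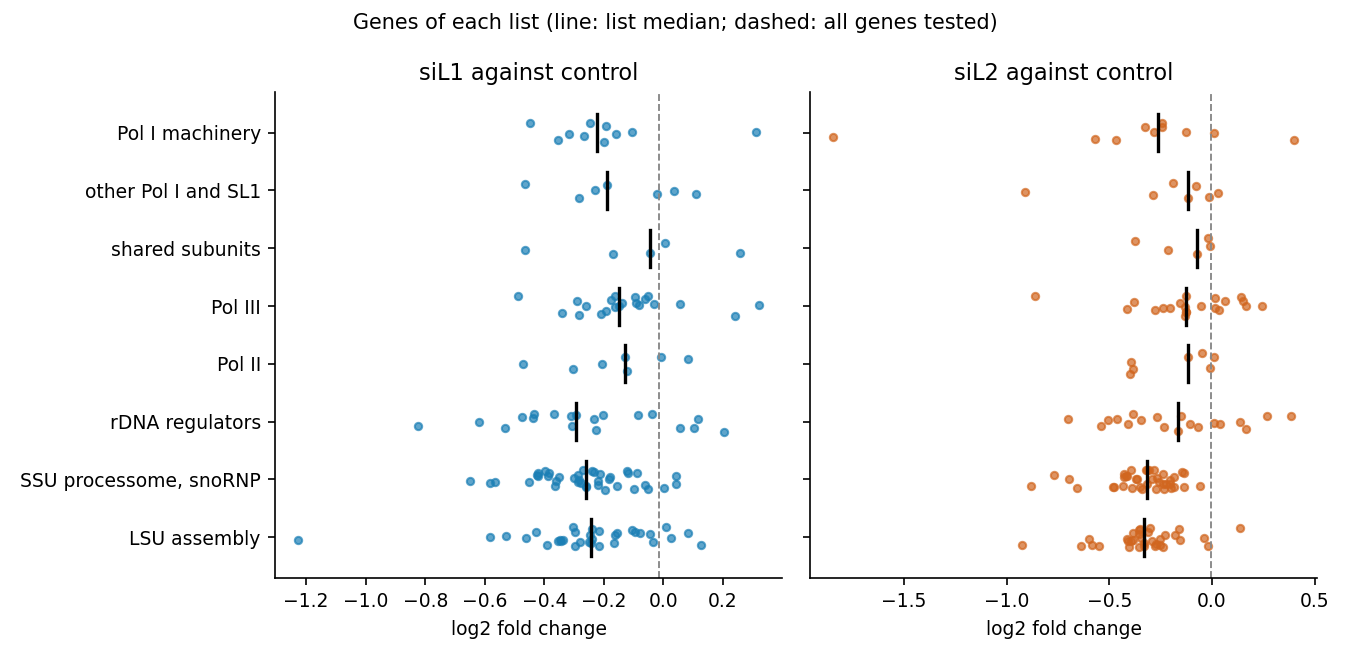
Log2 fold change of each gene of the 8 lists with siL1 (left) and siL2 (right); points are genes, solid lines list medians and the dashed line the median of all genes tested. In the small and large subunit assembly lists nearly all points lie below the dashed line, and the isolated point of the Pol I machinery with siL2 is CD3EAP at -1.84.

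RN45S, the 45S precursor of ribosomal RNA, which was singled out after its values were seen, had 0 counts in all 6 libraries, where 3 counts correspond to 0.112 to 0.136 CPM (counting error only). Whether its reads could be placed and counted is not given in the sources used here. The 0 counts therefore do not show that this RNA was absent. CPM are shares of all counted reads, and in bulk RNA fewer cells holding a transcript and less of it per cell cannot be told apart.

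The genes most like CD3EAP were sought among 10446 tested genes whose mean level reached 5 CPM, by the root mean square difference of log2 CPM relative to the control over the 6 libraries, as a description. They were SRM (0.0951), TBL1X (0.157), HNRNPA1 (0.175), THUMPD1 (0.196) and TFAMP1 (0.199). SRM, the spermidine synthase gene, had 146 and 145 CPM in the control, 138 and 142 with siL1, and 39.1 and 38.2 with siL2, the same shape as CD3EAP at a higher level. TFAMP1 is a pseudogene of TFAM and HNRNPA1 has many processed copies, so their reads may be split. SRM and HNRNPA1 held 1 copy of GTTACAA in the 3' UTR, THUMPD1 held 2, TBL1X held 0 and TFAMP1 was not searched. Of all searched genes, 9.40% held it at least once. These genes were picked for a pattern like that of CD3EAP, and the heptamer on the same libraries. Their copies are therefore no independent support.

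Among the 11450 tested genes with a 3' UTR in GENCODE v29, 9.40% held GTTACAA at least once and 1.15% (132 genes) held it 2 or more times. The median log2 fold change with siL2 was 0.0049 with 0 copies, -0.12 with 1 copy and -0.21 with 2 or more. With siL1 the medians were -0.0070, 0.02 and 0.04. Of the 132 genes CD3EAP had the lowest siL2 value, but it was chosen for a low level with siL2. Longer 3' UTRs hold more copies: the median 3' UTR was 1255 bases with 0 copies and 5092 with 2 or more. TACATTT or ACATTTA occurred in 34.9% of the searched genes, and 15.4% held 2 or more copies. These heptamers were chosen on the same libraries, so neither the medians nor the rank of CD3EAP is independent support.

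**Figure D4:**
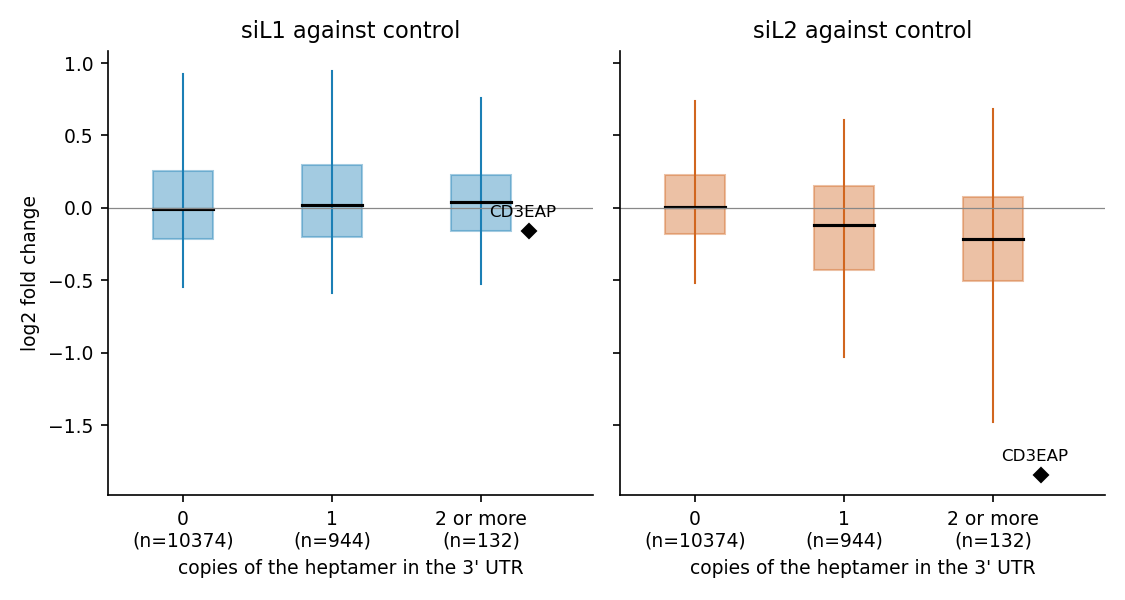
Log2 fold change of tested genes by the number of copies of the heptamer named for CD3EAP in the 3' UTR, with siL1 (left) and siL2 (right). Boxes span the middle quartiles, lines the 5th to 95th percentile and black bars the median. The diamond is CD3EAP, at -0.16 with siL1 and -1.84 with siL2. It was chosen for its low level with siL2, and the heptamer on the same libraries.

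Start sites were searched on both strands of 300-base RefSeq windows (GRCh38.p14) for the E-box CACGTG, the site type bound by MYC, and for CCGGAAG, read as CTTCCGG on the other strand, a motif of ETS factors; 9 of the 10 members matched, all but POLR1E. CACGTG was found in 1 of the 9, at CD3EAP, and in 7.26% of all 35116 windows. CCGGAAG was found in 4 of the 9 and in 10.3% of all windows, where a gene with several start sites has several windows. POLR1C held 3 matches, 2 of them overlapping, TAF1C held 2, and POLR1B held 1 in each of its 2 windows. The stretches are shown because their members differed in direction, POLR1B and POLR1C being lower and RRN3 higher with siL1, and CD3EAP being low with siL2; capitals mark the match. The first base of the match lay 12 bases before the RefSeq start at CD3EAP, 42 before it at POLR1B and 124 before it at POLR1C. The overlapping POLR1C match, CTTCCGG from 127 bases before that start, lies in the same stretch, its first bases in lower case. The RRN3 match lay 27 bases after the start of 1 of its windows and 37 before that of the other. In GENCODE v29 the CD3EAP gene starts at chr19:45406209, before the stretch shown. The match in the other POLR1B window, a separate site not shown, lay 126 bases before that start. The stretches shown lie at chr19:45406620-45406649 (plus strand), chr2:112542412-112542441 (plus), chr6:43516954-43516983 (plus) and chr16:15094291-15094320 (minus).
CD3EAP start: cccctttggatcCACGTGgtctgcaacctg
POLR1B start: tgcggccactaCTTCCGGcgtgtaccgaga
POLR1C start: aaaagcaacttCCGGAAGctggggacgtgg
RRN3 start: ggcacgcgcaaCTTCCGGgacagaggctgt
A match says only that the letters are there; binding was not measured, and CCGGAAG stood at members that fell as well as at the member that rose.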

How the data were processed

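RNA-seq was measured in 6 libraries. Per the submitters' processing notes, the authors used TopHat 1.3.3, HTSeq and DESeq with hg19; their settings, the gene annotation and any use of strand are not given in the sources used here. The deposited table holds raw counts per gene symbol, and the authors' deposited linear fold change (a ratio) and adjusted p-value of each siRNA against the control. Members and lists were chosen with earlier results of these data known, the heptamers too.

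Counts were fitted with edgeR 4.0.16 in R 4.3.3 (limma 3.58.1): filterByExpr by group (13322 of 23368 genes tested), TMM scaling, and glmQLFit on group alone, fitted to the 6 libraries together (3 residual degrees of freedom). Each comparison used glmQLFTest, two-sided, Benjamini-Hochberg adjusted over all genes tested, with a threshold of 0.05; called means past it. CPM are counts scaled to a library total of 1000000, without TMM, whereas log2 fold changes are TMM-scaled. SDs are over 2 libraries, and SEs are of log2 fold changes. Nearest patterns used log2 CPM with a prior count of 2. The fit was tested on simulated data. No set test was run.

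Sequences were read in Python 3.11.15 from GENCODE v29 (GRCh38; basic set, longest coding 3' UTR per symbol, 85.9% of tested genes) and RefSeq windows (GRCh38.p14), not the hg19 of the counts. Figures used matplotlib 3.10.9. Named were the members, KDM1A, overlapping or near-identical genes, the other Pol I and shared subunit genes, MYC, up to 4 genes with the smallest p per longer list and comparison (2 in each direction where both occur), and the 5 nearest patterns. Alternatives, which for list counts were chosen after seeing the data, were DESeq2 size factors, no filter, the DESeq2 1.42.0 Wald test, the replicate number as a block, only the groups compared, each library left out, and RRN3 with its pseudogenes summed. The value of 1 marker gene is not reported here.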

Additional observations from a re-analysis of the deposited data

Results flagged for a closer look

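The effects of the 2 siRNAs differed, by the direct test of siL2 against siL1 (edgeR's quasi-likelihood test, adjusted over all genes), for 1 of the 9 members tested and for several related genes. Over all genes tested, 23.2% were called higher and 23.7% lower in this comparison. CD3EAP, with a log2 difference of -1.68, was not tested there because its low level with siL2 was part of the choice of genes. UBTF was higher with siL2 by a log2 difference of 0.19 (adjusted p = 0.0054), with all siL2 libraries above all siL1 libraries. Of the other Pol I and SL1 genes, TWISTNB (-0.72, adjusted p = 1.84e-07) and TAF1B (-0.30, adjusted p = 0.000373) were lower with siL2, and TAF1D (0.35, adjusted p = 0.00611) and PTRF (0.31, adjusted p = 1.6e-05) were higher. Of the subunits shared by all 3 polymerases, POLR2E was higher (0.39, adjusted p = 7.11e-06), and POLR2F (-0.21, adjusted p = 0.0129), POLR2H (-0.17, adjusted p = 0.0397) and POLR2L (-0.27, adjusted p = 0.000292) were lower. PPP1R13L, the neighbour of CD3EAP, was lower (-0.27, adjusted p = 0.0057), and so was the target KDM1A (-0.66, adjusted p = 4.36e-06). The call of UBTF ended without siL1 replicate 2 (adjusted p = 0.067) or siL2 replicate 1 (0.0501). The call of TAF1D ended without siL1 replicate 1 (adjusted p = 0.0528) or siL2 replicate 2 (0.0712), that of POLR2F without siL1 replicate 1 (0.11) or siL2 replicate 2 (0.0663), and that of POLR2H without any of the 4 libraries compared (0.0776 to 0.171) and by the DESeq2 Wald test (0.0876).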

How the results depend on the processing

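The number of members that fell with siL1 was 5 to 7 and the number that rose was 1 under every alternative run, and the calls of POLR1B, POLR1C, POLR1D, POLR1E, UBTF and RRN3 with siL1 passed in all of them. Leaving out each library in turn, some small log2 differences changed sign: with siL1, POLR1A ranged from -0.22 to 0.0046, POLR2H from -0.14 to 0.053 and POLR2K from -0.020 to 0.029 (-0.0030 with no filter); in siL2 against siL1, POLR1D ranged from -0.065 to 0.0017, TAF1C from -0.17 to 0.093, TTF1 from -0.11 to 0.015 and POLR2K from -0.062 to 0.019; with siL2, TAF1D ranged from -0.27 to 0.021, TTF1 from -0.078 to 0.050, POLR2K from -0.057 to 0.023 and POLR2L from -0.054 to 0.034. For list counts, leaving out a library gave 0 to 1 other Pol I and SL1 genes higher with siL1, 1 to 2 shared subunits lower with siL1 and 1 to 2 with siL2, 6 to 11 RNA polymerase III genes lower with siL1, and 3 to 9 lower and 1 to 2 higher with siL2. It gave 0 to 2 regulators higher with siL1 and 2 to 4 with siL2, and 0 to 1 large subunit factors higher with siL1 and 0 to 1 with siL2. The DESeq2 Wald test gave 1 shared subunit lower with siL1, 5 RNA polymerase III genes lower with siL1, 5 lower and 1 higher with siL2, 1 regulator higher with siL1, and 0 large subunit factors higher with siL1 or with siL2. With no filter, 1 RNA polymerase III gene was higher with siL2 and 0 large subunit factors were higher with siL1. The ZNRD1 call also ended with DESeq2 size factors (adjusted p = 0.0501), the DESeq2 Wald test (0.157) and only the groups compared (0.0563). Replicate numbers were not taken as pairing, since there are only 2 and no label ties them; differences between replicates correlated between groups at 0.133 to 0.198. The calls over all genes also moved with the alternative. With siL1 they were fewer by the DESeq2 Wald test, and when a siL1 or control library was left out. The range of 5 to 7 members that fell is therefore no measure of stability on its own. The replicate block raised the calls over all genes from 6712 to 8036 with siL1, from 6240 to 7700 between the siRNAs and from 6106 to 7610 with siL2. With the block, 8 members were called with siL1, TAF1C being the addition (adjusted p = 0.000254), POLR1A, POLR1B and POLR1C passed between the siRNAs (0.0265, 0.0136, 0.0477), TAF1D and POLR2E passed with siL2 (0.0269, 0.0489), 1 other Pol I and SL1 gene, TAF1B, was higher with siL1 (0.0173) and 2 large subunit factors were higher with siL1. The causes of these changes were not tested. CD3EAP had 122 to 392 counts per library. The siL2 libraries, with 123 and 122 of them, held 26765079 and 24638002 counts in all, and the library with 392 held 22047738.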
